A study of Mus musculus with 14 samples.

Results

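Histone lysines carry acetyl and methyl groups that enzymes add ("writers") and remove ("erasers"). Acetylation by lysine acetyltransferases opens chromatin and marks active promoters and enhancers, and it is removed by zinc-dependent histone deacetylases and by sirtuins, which consume NAD. Lysine methylation marks active or silent genes depending on the residue. It is written by lysine methyltransferases, erased by flavin-dependent (LSD) or 2-oxoglutarate-dependent (JmjC) demethylases, and accompanied by arginine methylation from protein arginine methyltransferases. In T cells these enzymes are known for their part in the passage from naive to effector and memory states.

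The 59 genes described here are the rows of the count table whose symbol begins with Kdm, Kmt, Hdac, Sirt, Kat or Prmt and a digit, of 24091 genes in all. They comprise 18 lysine demethylases, 8 lysine methyltransferases, 11 histone deacetylases, 7 sirtuins, 7 lysine acetyltransferases and 8 arginine methyltransferases. The rule used only names, so writers named otherwise (Ezh2, Crebbp, Ep300) and subunits of the enzymes' complexes were taken as a separate list of related genes. Kdm5d, which is Y-linked, and Prmt8 had 0 reads in all 14 libraries, and 57 members passed the filter on low counts and were tested among 12248 genes.

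RNA-seq was made from sorted spleen T cells, 200000 cells a sample, of SCLtTA/BCR-ABL C57BL/6 mice, 1 library per mouse. In these mice tetracycline withdrawal switches on BCR-ABL through a transactivator driven by the SCL promoter, and all mice of both groups carried the transgenes and had 3 weeks of induction at 6 to 10 weeks of age. The chronic phase model (CP CML, Mir142+/+BCR-ABL) had 8 mice and the blast crisis model (BC CML, Mir142-/-BCR-ABL) had 6, with Mir142 deleted in the germline, so that it was missing from the leukemic cells and other tissues as well as from the T cells. No non-leukemic mice were part of this comparison. The CP CML libraries held 15703702 to 19914531 counted reads and the BC CML libraries 16145537 to 19399720. Reads over Mir142 numbered 302 to 650 in each CP CML library and 0 in every BC CML library, at least 167-fold lower when a floor of 3 reads per library is set.

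The T cell label was checked with Cd3d, Cd3e, Cd3g, Cd4 and Cd8a, which were expressed in all libraries, with a summed level of T cell markers of 3260 to 3673 CPM in CP CML and 4110 to 4338 CPM in BC CML (CPM, a gene's reads as a share of the library's reads, scaled by TMM). Markers of T cell state and of other blood cells differed between the groups. Summed naive T cell markers (Ccr7, Lef1, Tcf7, Il7r, Klf2 and S1pr1 among them) spanned 4890 to 6238 CPM in CP CML and 2683 to 3852 CPM in BC CML, each of those named being lower. Effector and memory markers spanned 789 to 973 CPM and 1639 to 2243 CPM, with 10 of 12 higher and 1 lower. Myeloid markers summed to 73.3 to 457 CPM in CP CML and 546 to 1382 CPM in BC CML, with 11 of 12 higher, and Lyz2, S100a8 and S100a9 were the most abundant of them in BC CML. B cell markers (37.6 to 136 against 67.4 to 377 CPM, 5 of 7 higher), NK cell markers (42.4 to 60.7 against 125 to 237 CPM, 3 of 4 higher, Klra4 at 0) and erythroid markers (17.0 to 70.9 against 54.9 to 89.4 CPM, 2 of 6 higher) were also present. Proliferation genes overlapped between the groups (380 to 532 against 383 to 739 CPM) and none of 8 passed the test, and 3 Y-linked genes were at 0 in every library. These values stand beside every result that follows, and apart from the fits with a marker score as covariate their part in it was not tested. In bulk RNA, a gene's level in each cell and the share of cells that express it cannot be told apart. The names of the CP CML mice share a prefix that differs from that of the BC CML mice. The labels do not say what the prefix stands for, and whatever it marks cannot be told apart from genotype either.

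In BC CML against CP CML, 13 of the 57 tested enzymes were higher and 20 were lower at an adjusted p below 0.05, and 24 did not pass. Of all 12248 tested genes 65.2% passed, 32.6% higher and 32.7% lower, so the share of enzymes called (57.9%) lay below that of genes in general. The changes were also smaller, the absolute log2 fold change having a median of 0.16 over the enzymes and 0.28 over all tested genes, with a signed median of -0.074 and -0.00831. An absolute log2 fold change of 0.5 or more with a passed test was seen for 6 enzymes, Hdac11, Kat2b, Sirt3 and Hdac5 upward and Kdm7a and Sirt7 downward, beside 28.5% of all tested genes. Groups did not overlap for 13 enzymes (all genes, 36.9%): Sirt2, Prmt5, Hdac5, Kat2b and Hdac11 were higher in every BC CML mouse than in any CP CML mouse (all genes, 19.3%), and Kdm7a, Sirt7, Hdac4, Kdm1a, Sirt6, Kdm3a, Kdm4b and Hdac2 were lower (17.6%). With the naive marker score as a covariate, 6 of the 33 calls remained (Hdac5, Kat2b, Prmt1, Kdm6b, Sirt6 and Sirt7), and 12 of the 27 lost calls turned in sign, none of them called in the new direction (Hdac1, Hdac4, Hdac10, Kat8, Kdm3a, Kdm5a, Kdm5b, Kdm6a, Prmt2, Prmt3, Prmt7 and Sirt1). The other 15 lost calls kept their sign, 14 of them with a log2 fold change no more than 1.5 times smaller than without the covariate (all but Sirt2), and for Hdac2, Hdac3, Kat2a, Kdm1b, Kmt2e and Sirt3 it was larger. Among these it was over 1.5 times larger for Hdac3 (0.25), Kat2a (-0.37), Kdm1b (-0.26) and Kmt2e (-0.31), as it was among the kept calls for Hdac5 (0.85), Prmt1 (0.46), Kdm6b (-0.81) and Sirt6 (-0.77). The SEs were wider in this fit, by a median of 3.16 times over the 33 enzymes. With the myeloid marker score 16 calls remained and no called enzyme turned. The 17 lost calls were those of Hdac1, Hdac3, Hdac6, Hdac10, Kat2a, Kat7, Kat8, Kdm1b, Kdm6a, Kdm6b, Kmt2e, Prmt1, Prmt2, Prmt3, Prmt7, Prmt9 and Sirt1. Their log2 fold change was no more than 1.5 times smaller for 13, and larger for 7 of those, with SEs wider by a median of 1.65 times over the 33 enzymes. It was over 1.5 times smaller for Kat2a (-0.15), Kat7 (0.043), Kdm6b (-0.14) and Prmt3 (-0.19). Hdac5, Kat2b, Sirt6 and Sirt7 kept their calls with each score. The naive score and genotype correlated at -0.95 over the 14 mice, so cell state and genotype can hardly be told apart in these fits.

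By class, no demethylase was higher and 9 of 17 were lower (52.9% called, beside 65.2% of all tested genes, 32.6% higher and 32.7% lower). Of these 9, only Kdm6b kept its call with the naive score as covariate, and Kdm3a, Kdm5a, Kdm5b and Kdm6a turned upward without a call. With the myeloid score Kdm6b lost its call, as did Kdm1b and Kdm6a, and Kdm1a, Kdm3a, Kdm4b, Kdm5a, Kdm5b and Kdm7a kept theirs. Among lysine methyltransferases 0 of 8 were higher and 1 was lower (12.5% called). Deacetylases split into 5 higher and 3 lower of 11, sirtuins into 2 and 3 of 7, acetyltransferases into 3 and 1 of 7, and arginine methyltransferases into 3 and 3 of 7 tested. No test of a difference between classes was made. The summed level of the demethylases was 2489 to 2667 CPM in CP CML and 2210 to 2395 CPM in BC CML, with no overlap.

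**Figure D1:**
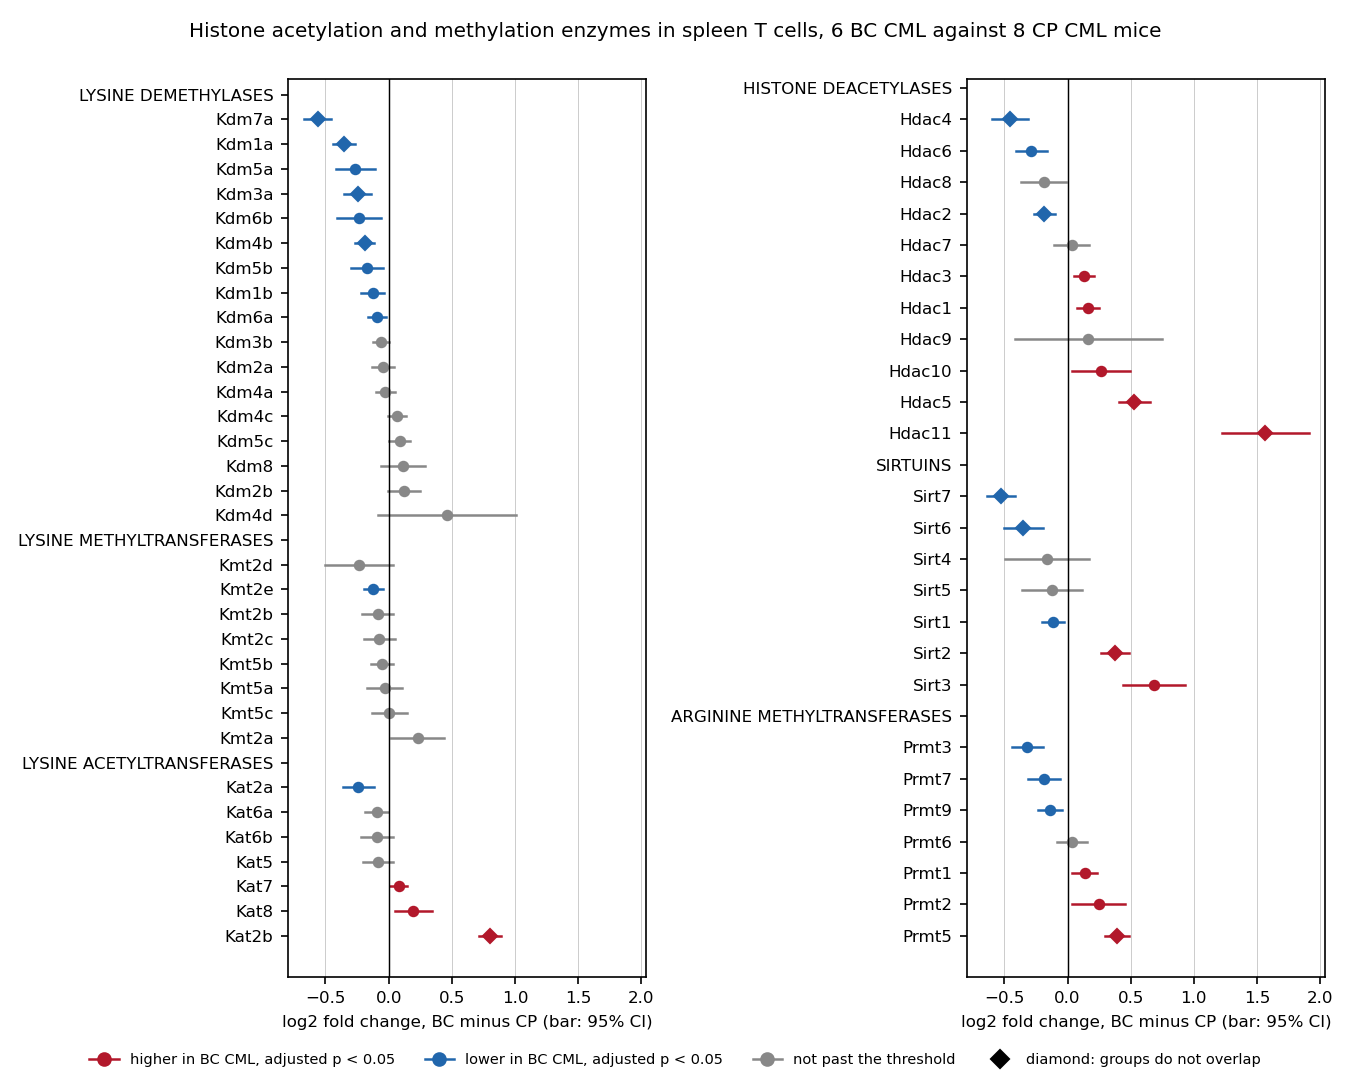
Log2 fold change of each of the 57 tested enzymes (BC CML minus CP CML), with 95% confidence intervals, grouped by class; red, blue and gray mark higher, lower and not past the threshold, and diamonds mark groups that do not overlap. The demethylase points called are all on the lower side, the lysine methyltransferases lie between -0.23 and 0.23, and Hdac11 (1.57) and Kat2b (0.80) lie farthest to the right.

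Because the mice differ in Mir142, the 3′ UTRs of the enzymes were searched for matches to the seeds of its mature products, whose sequences were taken from RefSeq (GRCm38.p6, chromosome 11). Bases 2 to 8, the seed, are in capitals.
mmu-miR-142a-3p: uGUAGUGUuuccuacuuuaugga
mmu-miR-142a-5p: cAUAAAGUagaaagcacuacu
The complement of bases 2 to 8 followed by an A (an 8mer) reads ACACTACA for the 3p arm and ACTTTATA for the 5p arm, and a 7-base match is the first 7 or the last 7 of those letters (sense strand only). Of the 57 tested enzymes 21 (36.8%) held a match of 7 or 8 bases to either arm in their longest annotated 3′ UTR, beside 3532 of the 11509 tested genes with a 3′ UTR (30.7%). For the 3p arm the shares were 17.5% and 12.1%, and for the 5p arm 24.6% and 23.5%. Among the 21 enzymes with a match, 3 were higher, 8 were lower and 10 did not pass, beside 1462 higher, 959 lower and 1111 not past the threshold of the 3532 genes. The arms differed in their counts. Of the 14 enzymes with a 5p match 0 were higher, 6 were lower and 8 did not pass, and of the 10 with a 3p match 3 were higher, 3 were lower and 4 did not pass. Of all tested genes with a match, 1077 were higher and 769 lower of 2702 for the 5p arm, and 681 were higher and 306 lower of 1394 for the 3p arm. No test of these counts was made. Kat2b held the only 8mer for the 3p arm among the enzymes, and Sirt7, Kdm1b and Sirt5 held 8mers for the 5p arm. These 4 sites are printed with their flanks, the match in capitals, because they are the longest matches in the set (GENCODE vM21 on mm10, 5′ to 3′ on the gene's strand, the position being that of the match).
Kat2b, chr17:53671979-53671986, plus strand: atttcctaattACACTACAtagaaaagtgg
Sirt7, chr11:120618462-120618469, minus strand: tacaagtgttcACTTTATAgaagccttttt
Kdm1b, chr13:47083813-47083820, plus strand: cacaggacattACTTTATAagccatatgtt
Sirt5, chr13:43386044-43386051, plus strand: ttcttctccagACTTTATActtgcatctgt
Of these genes Kat2b was higher, Sirt7 and Kdm1b were lower, and Sirt5 did not pass (log2 fold change -0.12, adjusted p = 0.340). Over all tested genes the median log2 fold change was 0.23 for the 350 with a 3p 8mer and -0.010 for those without, and 0.048 for the 601 with a 5p 8mer and -0.0064 for those without. Hdac5 carried a 7-base match to the 3p arm, in a transcript that ends beyond the gene span in the count table, and Kdm7a a 7-base match to the 5p arm. Hdac4, Hdac9 and Kmt2a held a match to both arms. A match describes letters only, and binding was not measured.

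The acetyltransferase Kat2b (PCAF; chr17:53566971-53672721, plus strand) had the lowest adjusted p of the 57 enzymes. It acetylates histone H3 in the SAGA and ATAC complexes. Its lowest, median and highest values were 107, 116 and 124 CPM in the 8 CP CML mice and 185, 200.03 and 215 CPM in the 6 BC CML mice. The groups were far apart, and the gain was 1.74-fold (log2 fold change 0.80 ± 0.041 SE, adjusted p = 2.09e-11). Per kilobase of gene length, Kat2b moved from rank 23 to rank 8 among the enzymes, from 24.5 to 42.7 CPM per kb. Its log2 fold change stayed between 0.78 and 0.82 when any mouse was left out, was 0.89 with the naive score and 0.78 with the myeloid score as covariate, and its call was kept in all of these fits.

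Kat2a (GCN5), the paralog of Kat2b in the same complexes, went the other way, with 74.2 to 91.3 CPM in CP CML and 59.5 to 75.3 CPM in BC CML (log2 fold change -0.24, adjusted p = 0.00146). Its call was lost with the naive score (log2 fold change -0.37, adjusted p = 0.216) and with the myeloid score (log2 fold change -0.15, adjusted p = 0.204) as covariate. The groups overlapped by a narrow margin. The ratio of Kat2a to Kat2b reads within a mouse fell, its lowest, median and highest values being 0.600, 0.706 and 0.761 in CP CML and 0.301, 0.346 and 0.371 in BC CML. No mouse of either group had a ratio in the range of the other group (difference of mean log2 ratio -1.04, exact permutation test over all splits of the 14 mice, two-sided, p = 3.33e-04, adjusted p = 0.00133 over 12 pairs, the smallest p the test allows). Such a ratio does not depend on library scaling. The ranges of Kat2a and Kat2b already force this ratio apart, so its p-value is not evidence beyond the values of each gene.

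The MYST acetyltransferases changed little. Kat8 (MOF), which acetylates histone H4, and Kat7 (HBO1) were higher, by log2 fold changes of 0.20 (adjusted p = 0.0207) and 0.079 (adjusted p = 0.0409), both with overlapping groups. Kat8 lost its call without BC CML replicate 1, and Kat7 without any of CP CML replicates 1, 3, 4, 5 and 8 or BC CML replicates 1, 2, 4 and 6. Kat6a (MOZ; chr8:22859539-22943262, plus strand) was the acetyltransferase with the highest level per length, 52.5 CPM per kb in CP CML and 49.2 in BC CML. It ran through 447, 472 and 525 CPM in CP CML and 429, 443 and 473 CPM in BC CML (lowest, median, highest), and it did not pass (log2 fold change -0.094, adjusted p = 0.0618). Its paralog Kat6b (MORF; log2 fold change -0.093, adjusted p = 0.190) and Kat5 (TIP60; log2 fold change -0.084, adjusted p = 0.207; 12.1% of its exon bases shared with Rnaseh2c on the opposite strand) did not pass either. Kat6a and Kat6b kept a like ratio, with medians of 7.37 and 7.40 (exact permutation test, p = 0.992, adjusted p = 0.992).

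**Figure D2:**
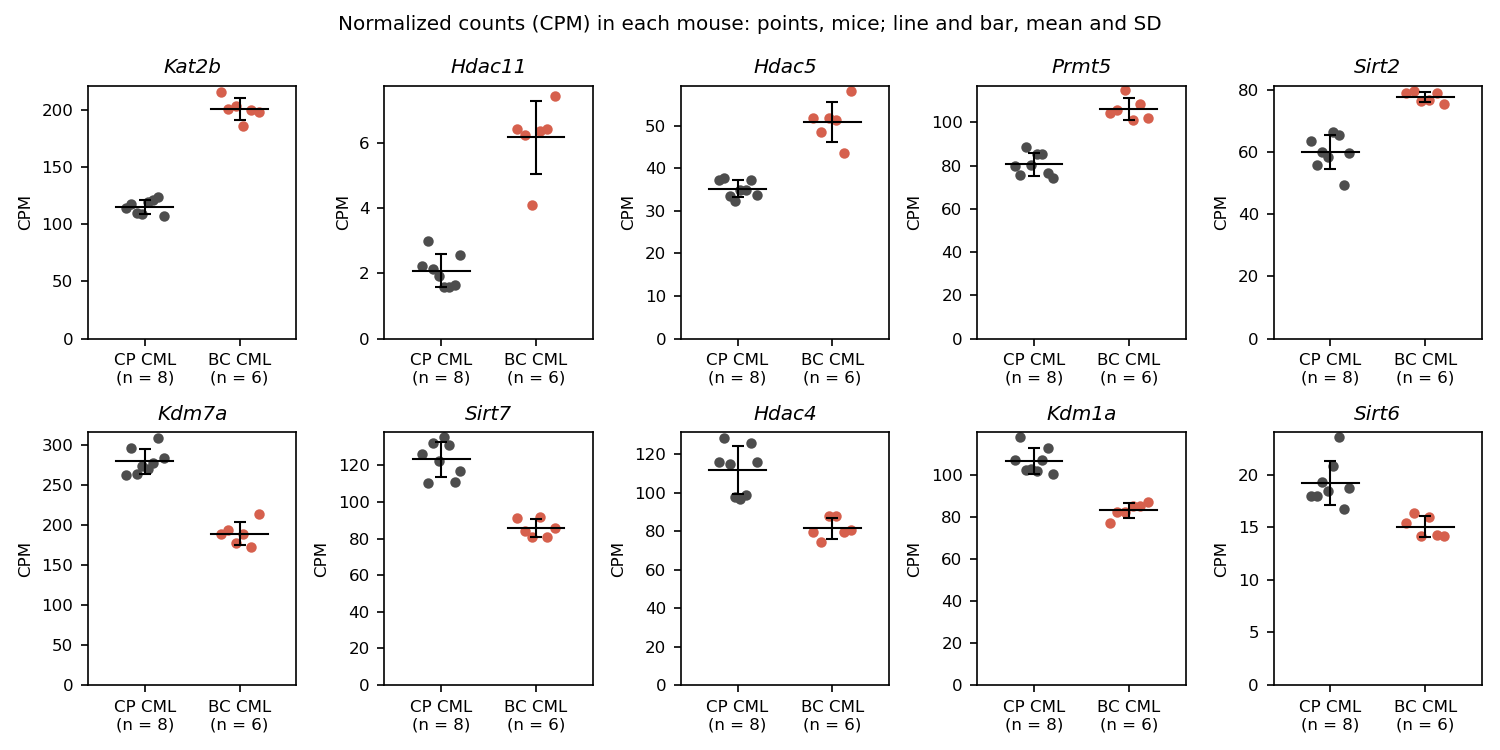
Normalized counts (CPM, linear axes from 0) of 10 enzymes in each of the 8 CP CML (gray) and 6 BC CML (red) mice, with the mean and SD. In none of the 10 panels do the groups overlap, and the BC CML points lie above in the upper row and below in the lower row.

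Hdac11, the only class IV deacetylase, which also removes long fatty acyl groups, had the largest fold change of the enzymes and was among the scarcest, at rank 56 of 57 in CPM and 55 per kilobase in CP CML (chr6:91156815-91174683, plus strand). Its lowest, median and highest values were 1.57, 2.02 and 2.99 CPM in CP CML and 4.09, 6.41 and 7.46 CPM in BC CML. It had only 25 to 145 reads a library, yet the lowest BC CML value exceeded the highest CP CML value (2.96-fold, log2 fold change 1.57 ± 0.16 SE, adjusted p = 1.76e-07). Within BC CML, replicate 3 lay apart from the others at 4.09 CPM. With the naive score as covariate the log2 fold change was 1.31 and did not pass (adjusted p = 0.140), and with the myeloid score it was 1.21 and did. Of its annotated exon bases, 15.4% are shared with a gene on the opposite strand (Gm44002), and whether the counting used strand is not given in the sources used here.

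The class IIa deacetylases, which shuttle between cytoplasm and nucleus and repress MEF2 targets in T cells, split. Hdac5 (chr11:102195747-102230172, minus strand) had lowest, median and highest values of 32.4, 34.9 and 37.8 CPM in CP CML and 43.6, 51.5 and 58.1 CPM in BC CML, with no overlap (log2 fold change 0.53 ± 0.057 SE, adjusted p = 2.80e-07). Hdac4 fell from 96.8 to 129 CPM to 74.2 to 88.0 CPM, again with no overlap (log2 fold change -0.45, adjusted p = 1.75e-05). With the naive score as covariate the Hdac4 call ended and its sign turned (log2 fold change 0.076, adjusted p = 0.836), whereas with the myeloid score the call was kept. Of the Hdac4 exon bases 22.4% are shared with an antisense RNA gene, Gm26720. The Hdac4 to Hdac5 ratio within a mouse had lowest, median and highest values of 2.77, 3.24 and 3.44 in CP CML and 1.39, 1.61 and 1.82 in BC CML. The ratio dropped in every BC CML mouse below the lowest CP CML mouse (log2 difference -0.98, exact permutation test, p = 3.33e-04, adjusted p = 0.00133). Since Hdac4 fell and Hdac5 rose without overlap, the ratio had to separate, and its p-value adds nothing to the values of each gene. Hdac7, known from thymocyte selection and the most abundant class IIa gene per length (44.3 and 45.4 CPM per kb), did not pass (log2 fold change 0.034, adjusted p = 0.662, 95% confidence interval -0.10 to 0.17), with BC CML replicate 2 apart from its group at 265.9 CPM. Hdac9 ran from 3.94 to 14.6 CPM among BC CML mice, a coefficient of variation of 57.2%, against 4.65 to 8.37 CPM in CP CML, and did not pass (adjusted p = 0.613).

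The class I deacetylases Hdac1, Hdac2 and Hdac3 are catalytic subunits of the NuRD, SIN3, CoREST and NCoR corepressors. Hdac1 (chr4:129516104-129542646, minus strand) had the highest level per length of all 57 enzymes in both groups, 86.4 ± 4.96 CPM per kb in CP CML (SD, n = 8) and 96.7 ± 4.09 in BC CML (SD, n = 6). In CPM its lowest, median and highest values were 160.1, 166 and 187 CPM and 181, 189 and 201 CPM, with a small overlap (log2 fold change 0.16 ± 0.041 SE, adjusted p = 0.00222). The Hdac1 call was lost with the naive score as covariate (log2 fold change -0.097, adjusted p = 0.648) and with the myeloid score (log2 fold change 0.16, adjusted p = 0.0694). Hdac2 fell with no overlap, from 97.1 to 110.1 CPM to 87.1 to 96.0 CPM (log2 fold change -0.18, adjusted p = 5.70e-04). The Hdac1 to Hdac2 ratio within a mouse rose from a median of 1.62 (1.49 to 1.76) to 2.06 (1.99 to 2.24), also without overlap (exact permutation test, p = 3.33e-04, adjusted p = 0.00133). Hdac3, the NCoR subunit, was slightly higher (log2 fold change 0.13, adjusted p = 0.00541), and Hdac8 did not pass (log2 fold change -0.19, adjusted p = 0.0610). In class IIb, Hdac6, a tubulin deacetylase, was lower (log2 fold change -0.29, adjusted p = 3.61e-04) and Hdac10, a polyamine deacetylase, was higher (log2 fold change 0.27, adjusted p = 0.0410), the latter losing its call without any of CP CML replicates 2, 3, 4, 7 and 8 or BC CML replicates 1, 2, 3 and 4.

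**Figure D3:**
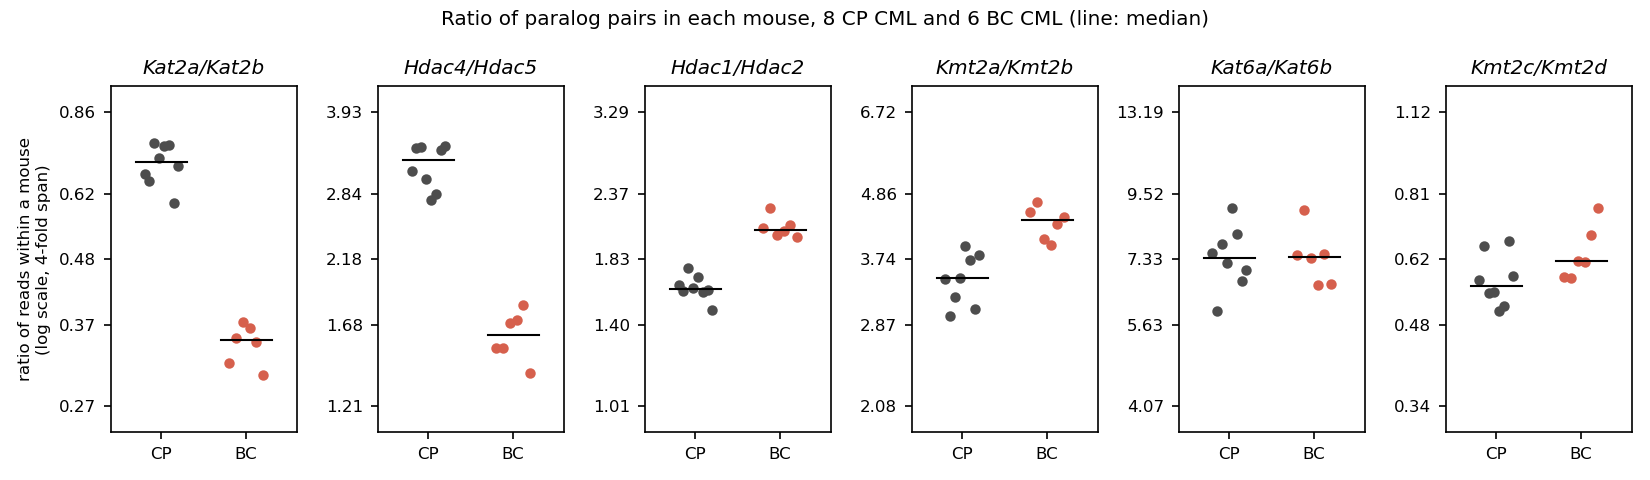
Ratio of the reads of 6 paralog pairs within each mouse (log axes that each span 4-fold; points are mice, lines are medians). Kat2a/Kat2b and Hdac4/Hdac5 were lower and Hdac1/Hdac2 and Kmt2a/Kmt2b higher in all 6 BC CML mice than in all 8 CP CML mice, whereas Kat6a/Kat6b and Kmt2c/Kmt2d overlapped.

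Of the nuclear sirtuins Sirt1, Sirt6 and Sirt7 were lower (all tested genes, 32.7% lower), the cytosolic Sirt2 and the mitochondrial Sirt3 were higher, and the mitochondrial Sirt4 and Sirt5 did not pass. Sirt7 (chr11:120618372-120625002, minus strand), a deacetylase found in the nucleolus, was the sirtuin with the highest level per length (42.3 CPM per kb in CP CML, 29.4 in BC CML). Its lowest, median and highest values were 110.5, 124 and 135 CPM in CP CML and 80.6, 85.0 and 91.9 CPM in BC CML. Every BC CML mouse lay below every CP CML mouse (log2 fold change -0.52 ± 0.053 SE, adjusted p = 1.18e-07), and the log2 fold change was -0.76 with the naive score and -0.43 with the myeloid score as covariate, both called.

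Sirt6, which deacetylates histone H3 at telomeres and at genes of glucose metabolism, fell from 16.8 to 23.6 CPM to 14.2 to 16.3 CPM with no overlap (log2 fold change -0.35, adjusted p = 4.45e-04). Sirt1 was also lower, with overlap (log2 fold change -0.11, adjusted p = 0.0191), but lost its call with the replicate block, with either marker score and without CP CML mice 2 and 7, and its log2 fold change was 0.028 with the naive score. Sirt2, a tubulin deacetylase, rose from 49.5 to 66.3 CPM to 75.3 to 79.7 CPM, and its spread among the BC CML mice was the narrowest of all enzymes in that group, at 2.21% (log2 fold change 0.37, adjusted p = 8.04e-06). The Sirt2 call was lost with the naive score as covariate (log2 fold change 0.056, adjusted p = 0.860) and kept with the myeloid score (log2 fold change 0.38, adjusted p = 0.00279). Sirt3, the main mitochondrial deacetylase, ran through 5.84, 6.97 and 7.92 CPM in CP CML and 7.91, 11.7 and 13.3 CPM in BC CML (lowest, median, highest). Only BC CML replicate 5, at 7.91 CPM, fell within the CP CML range (log2 fold change 0.68, adjusted p = 5.81e-05). Exons of Sirt3 overlap Ric8a (7.00% of its exon bases) and Psmd13 (5.73%) on the opposite strand. The other mitochondrial members, Sirt4, linked to glutamine metabolism (log2 fold change -0.16, adjusted p = 0.385), and Sirt5, which removes succinyl groups (log2 fold change -0.12, adjusted p = 0.340), had few reads and did not pass.

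Among the demethylases, Kdm7a (chr6:39136620-39206773, minus strand), a JmjC enzyme that removes repressive methyl marks from histone H3, fell most. Its lowest, median and highest values were 262, 276 and 309 CPM in CP CML and 172, 189 and 214 CPM in BC CML. The groups did not overlap (log2 fold change -0.56 ± 0.050 SE, adjusted p = 2.15e-08), and its rank per length among the enzymes went from 17 to 28. With the naive score as covariate the log2 fold change was -0.45 and no longer passed, and with the myeloid score it was -0.65 and did. Kdm8, another JmjC protein, did not pass (log2 fold change 0.12, adjusted p = 0.227).

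Both flavin-dependent enzymes were lower. Kdm1a (LSD1; chr4:136550533-136602723, minus strand), the CoREST demethylase, had the highest level per length of the demethylases in CP CML (34.8 CPM per kb, 27.2 in BC CML). Its lowest, median and highest values were 100.3, 105 and 118 CPM in CP CML and 76.9, 83.7 and 87.0 CPM in BC CML, with no overlap (log2 fold change -0.35 ± 0.042 SE, adjusted p = 9.93e-07). Kdm1b (LSD2) changed less (log2 fold change -0.13, adjusted p = 0.0174), and 9.19% of its exon bases are shared with Dek on the opposite strand.

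The JmjC enzymes are described by target. Of the KDM3 pair, which acts on methylated H3K9, Kdm3a fell from 176 to 215 CPM to 142 to 171 CPM with no overlap (log2 fold change -0.25, adjusted p = 4.40e-04), whereas Kdm3b did not pass (log2 fold change -0.062, adjusted p = 0.0797). Kdm3b was the steadiest enzyme among the CP CML mice, with a coefficient of variation of 2.23%, and 24.6% of its exon bases are shared with an antisense RNA gene. Of the KDM4 enzymes, which act on H3K9 and H3K36, Kdm4b was lower without overlap (log2 fold change -0.19, adjusted p = 1.90e-04). Kdm4a (log2 fold change -0.026, adjusted p = 0.541), Kdm4c (log2 fold change 0.065, adjusted p = 0.0843) and the scarce Kdm4d (0.674 to 1.83 CPM against 0.944 to 2.20 CPM, adjusted p = 0.126) did not pass, and BC CML replicate 2 stood apart for Kdm4a at 136 CPM.

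The KDM5 enzymes remove the active mark H3K4 methylation. Kdm5a, whose CP CML values were 275 to 378 CPM and BC CML values 245 to 309.9 CPM, was lower (log2 fold change -0.27, adjusted p = 0.00412), as was Kdm5b (log2 fold change -0.17, adjusted p = 0.0180), both with overlap, CP CML replicate 2 standing apart for Kdm5b at 116 CPM. The X-linked Kdm5c did not pass (log2 fold change 0.088, adjusted p = 0.0622). Of the KDM6 pair, which removes the repressive H3K27 methylation, Kdm6b (JMJD3; log2 fold change -0.23, adjusted p = 0.0194; -0.81 with the naive and -0.14 with the myeloid score) and the X-linked Kdm6a (UTX; log2 fold change -0.092, adjusted p = 0.0288) were both lower, with overlap, and Kdm6a lost its call without CP CML replicate 2 or BC CML replicate 2 or 5. The KDM2 pair, acting on H3K36, did not pass (Kdm2a, log2 fold change -0.046, adjusted p = 0.342, and Kdm2b, log2 fold change 0.12, adjusted p = 0.0780). Within-mouse ratios differed for Kdm4a/Kdm4b (0.16, p = 0.00133, adjusted p = 0.00320), Kdm3a/Kdm3b (-0.18, p = 0.00400, adjusted p = 0.00599), Kdm2a/Kdm2b (-0.17, p = 0.00400, adjusted p = 0.00599) and Kdm5a/Kdm5c (-0.35, p = 0.0117, adjusted p = 0.0155), each a difference of mean log2 ratio with overlapping groups by the exact permutation test. For Kdm6a/Kdm6b it did not pass (0.13, exact permutation p = 0.276, adjusted p = 0.301).

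The KMT2 (MLL) family, which includes the large enzymes that methylate H3K4 at promoters and enhancers, held 3 of the 4 highest levels per length in CP CML. Kmt2e (chr5:23434429-23504229, plus strand) was at 65.4, Kmt2d at 64.5 and Kmt2a at 58.4 CPM per kb, and Kmt2e and Kmt2d did not differ beyond the spread between mice. Kmt2e had lowest, median and highest values of 453, 488 and 509.9 CPM in CP CML and 426, 439 and 477 CPM in BC CML, with overlap. It was the only enzyme called in the lysine methyltransferase class (log2 fold change -0.12 ± 0.036 SE, adjusted p = 0.00590). Of its exon bases 9.31% are shared with Srpk2 on the opposite strand.

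In the lysine methyltransferase class, Kmt2a and Kmt2d had the largest fold changes and also the widest spread. Kmt2a (MLL1) ran through 782, 936 and 1206 CPM in CP CML and 1003, 1085 and 1285 CPM in BC CML (lowest, median, highest; log2 fold change 0.23, adjusted p = 0.0501, short of the threshold), and it passed under 5 of 10 alternative fits. With the naive score as covariate it turned in sign without a call (log2 fold change -0.34, adjusted p = 0.481). With the myeloid score it was not called either (log2 fold change 0.28, adjusted p = 0.194). Kmt2d (MLL4) ran through 962, 1261 and 1612 CPM and 874, 1094 and 1299.8 CPM (log2 fold change -0.23, adjusted p = 0.115). The CP CML mice 2 and 7 had the lowest Kmt2d values in their group, 999 and 962 CPM, and mice 5 and 6 the highest, 1582 and 1612 CPM. The same 4 mice lay at the ends for Kmt2a (792 and 782 CPM against 1206 and 1181 CPM), and at the opposite ends for Kdm5a (375 and 378 CPM against 275 and 286 CPM). Without CP CML mice 2 and 7, an alternative chosen after seeing these values, 10 enzymes were higher and 20 lower, and Kmt2d and Kat6a gained a call. These mice had the lowest Kmt2d values of their group, so the gained Kmt2d call follows from that choice and is no evidence of a change. The naive score, a mean of log2 CPM over the naive markers, was highest in mice 7 and 2 (9.35 and 9.33) and lowest in mice 5 and 6 (9.07 and 9.17), and its part in this spread was not tested.

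The Kmt2a to Kmt2b ratio within a mouse had lowest, median and highest values of 2.98, 3.46 and 3.94 in CP CML and 3.96, 4.36 and 4.69 in BC CML. The groups did not overlap, although neither gene passed on its own (log2 difference 0.33, exact permutation test, p = 9.99e-04, adjusted p = 0.00300). This ratio was not fitted with a marker score. Kmt2b (MLL2; log2 fold change -0.088, adjusted p = 0.204) and Kmt2c (MLL3; log2 fold change -0.074, adjusted p = 0.279) did not pass, and the Kmt2c to Kmt2d ratio did not differ past the threshold (exact permutation test, p = 0.0859, adjusted p = 0.103). The KMT5 enzymes, which methylate H4K20, lay near 0, with Kmt5a at a log2 fold change of -0.033, Kmt5b at -0.054 and Kmt5c at 0.0054, and their 95% confidence intervals reached from -0.17 at the lowest to 0.14 at the highest. Kmt5a alone of the enzymes gained a call with the naive score as covariate (log2 fold change -0.55, adjusted p = 0.0453).

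Of the arginine methyltransferases, Prmt5, the main enzyme of symmetric dimethylation and a splicing regulator, had the largest gain. It spanned 74.3 to 88.9 CPM in CP CML and 101.3 to 115 CPM in BC CML, with no overlap (log2 fold change 0.39, adjusted p = 6.33e-07). The Prmt5 call was lost with the naive score as covariate (log2 fold change 0.34, adjusted p = 0.145) and kept with the myeloid score (log2 fold change 0.50). Prmt1 (chr7:44976755-44986420, minus strand), the main enzyme of asymmetric dimethylation, had the highest level per length of this class, 43.6 CPM per kb in CP CML and 48.0 in BC CML. Its lowest, median and highest values were 65.8, 73.0 and 79.9 CPM in CP CML and 73.2, 80.9 and 85.8 CPM in BC CML, with overlap (log2 fold change 0.14 ± 0.046 SE, adjusted p = 0.0154). The Prmt1 call was kept with the naive score as covariate (log2 fold change 0.46, adjusted p = 0.0309) and lost with the myeloid score (log2 fold change 0.14, adjusted p = 0.161). The Prmt1 to Prmt5 ratio was lower in BC CML, with overlap (log2 difference -0.26, exact permutation test, p = 0.00300, adjusted p = 0.00599). Prmt2 was higher (log2 fold change 0.25, adjusted p = 0.0374), losing its call without any of CP CML replicates 2, 3 and 7 or BC CML replicates 1, 2 and 5. Prmt3, which methylates a ribosomal protein, was lower (log2 fold change -0.32, adjusted p = 1.13e-04), as were Prmt7, which makes monomethylarginine (log2 fold change -0.18, adjusted p = 0.0118, BC CML replicate 3 apart at 29.4 CPM), and Prmt9, which methylates a splicing factor (log2 fold change -0.14, adjusted p = 0.0109). Prmt2, Prmt3, Prmt7 and Prmt9 lost their calls with each score, and all but Prmt9 turned in sign with the naive score. Prmt6, with 23.4% of its exon bases shared with an antisense gene, did not pass (log2 fold change 0.035, adjusted p = 0.591).

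**Figure D4:**
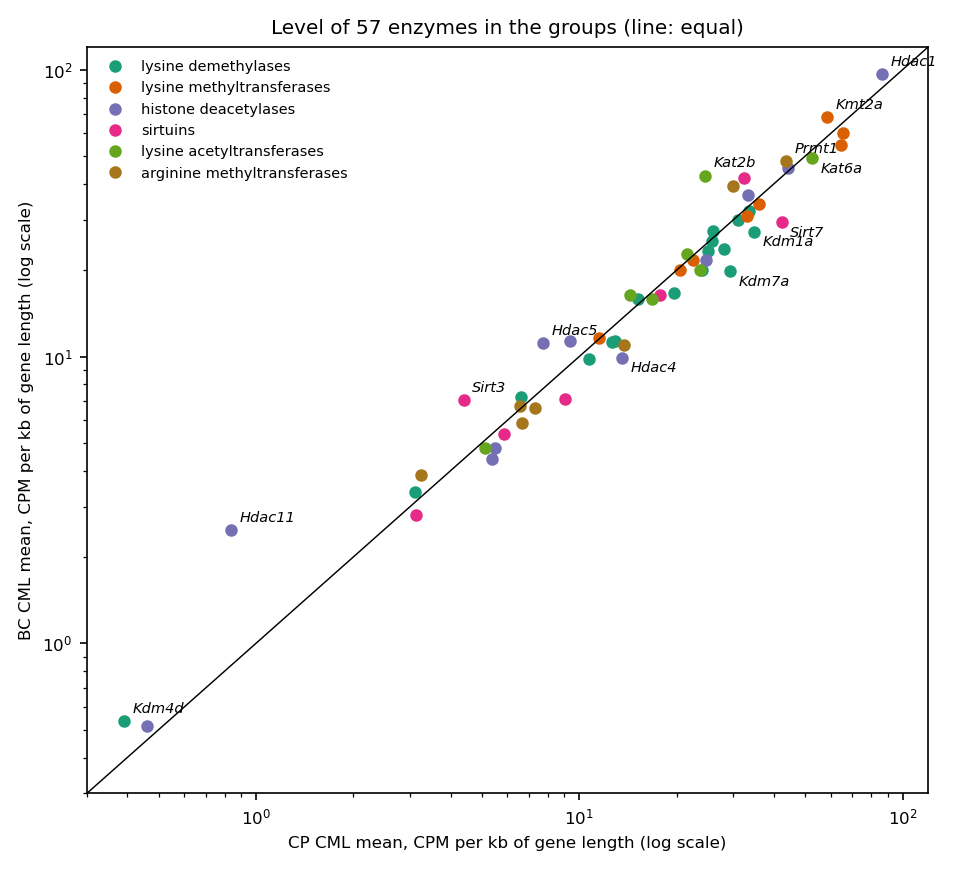
Mean level per kilobase of gene length of the 57 tested enzymes in CP CML (x axis) and BC CML (y axis), both log scales, colored by class, with the line of equal levels. Most points lie near the line, Hdac1 is at the top (86.4 and 96.7 CPM per kb), and Hdac11 and Kat2b stand above the line.

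The span of levels was wide, from Kdm4d (0.392 CPM per kb in CP CML) and Hdac9 (0.459) to Hdac1 (86.4). The order of levels was much alike in the groups. Hdac1 held rank 1 and Kat6a rank 5 in both, while Sirt7 went from rank 8 to 16, Kdm1a from 10 to 18 and Sirt2 from 14 to 9. The median SD of log2 CPM over mice was 0.11 in CP CML and 0.10 in BC CML for the enzymes, and 0.13 in both groups for all tested genes.

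The related genes, which share complexes or cofactors with the enzymes but fall outside the naming rule, leaned lower. Of 131 tested, 23 were higher and 64 lower (66.4% called), with a median log2 fold change of -0.12 (all tested genes, -0.00831). Subunits of acetyltransferase complexes had 3 higher and 19 lower of 35 (62.9% called), and subunits of deacetylase complexes 6 and 11 of 27 (63.0%), both slightly under the 65.2% of all tested genes (32.6% higher, 32.7% lower). Methyltransferases outside the rule had 4 and 14 of 25 (72.0%), among them 0 higher and 5 lower of the 8 PRC2 genes (62.5%). COMPASS subunits had 1 and 5 of 12 (50%) and cofactor supply 3 and 8 of 16 (68.8%). Demethylases outside the rule had 1 and 4 of 6, and acetyltransferases outside the rule 4 and 2 of 7. With the naive score as covariate 12 of the 87 calls among related genes remained and 16 turned in sign, none of them called in the new direction. The other 59 lost calls kept their sign, 39 of them with a log2 fold change no more than 1.5 times smaller (28 of those larger), and the SEs were wider by a median of 3.24 times. With the myeloid score 61 remained and 0 turned, and 17 of the 26 lost calls had a log2 fold change no more than 1.5 times smaller.

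Ing5, a reader subunit of MYST complexes, went from 52.5 to 68.3 CPM to 32.3 to 38.6 CPM with no overlap (log2 fold change -0.80, adjusted p = 3.12e-09), and Mcrs1, of the Kat8 complex, was also lower (log2 fold change -0.55, adjusted p = 4.25e-05). Among the corepressor subunits the largest changes were gains, of Sap30 in SIN3 (log2 fold change 0.48, adjusted p = 0.00650) and Hmg20b in CoREST (log2 fold change 0.46, adjusted p = 2.42e-06). The H3K9 methyltransferases Suv39h1 and Suv39h2 parted, Suv39h1 being lower (log2 fold change -0.51, adjusted p = 8.81e-08) and the scarcer Suv39h2 higher (log2 fold change 0.72, adjusted p = 9.22e-04). The PRC2 enzyme Ezh2, which writes H3K27 methylation, did not pass (log2 fold change -0.095, adjusted p = 0.183). Crebbp and Ep300, the paired acetyltransferases of enhancers, moved apart by small amounts, with Crebbp lower (log2 fold change -0.22, adjusted p = 7.31e-04) and Ep300 higher (log2 fold change 0.16, adjusted p = 0.0116). Ncoa2, a nuclear receptor coactivator, was lower (log2 fold change -0.25, adjusted p = 3.74e-05). Of the genes named in this group, Suv39h1 alone kept its call with the naive score as covariate. Crebbp lost its call there with a larger log2 fold change (-0.35, adjusted p = 0.168). The change was over 1.5 times smaller there, and not called, for Ing5 (log2 fold change -0.35, adjusted p = 0.204), Hmg20b (0.14), Suv39h2 (0.38) and Ncoa2 (-0.063), all of which kept their calls with the myeloid score. The log2 fold change turned there to 0.035 for Mcrs1, -0.22 for Sap30 and -0.22 for Ep300, and with the myeloid score Sap30 (log2 fold change 0.15, adjusted p = 0.636) and Ep300 (log2 fold change 0.11, adjusted p = 0.327) lost their calls.

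Of the JmjC genes outside the rule, Jmjd1c was higher (log2 fold change 0.31, adjusted p = 3.62e-06) and the ribosomal oxygenase Riox1 lower (log2 fold change -0.53, adjusted p = 3.68e-06). Of the COMPASS genes, Pagr1a was higher (log2 fold change 0.57, adjusted p = 3.53e-05) and the CpG-binding Cxxc1 lower (log2 fold change -0.29, adjusted p = 1.25e-06). The largest changes among the related genes were in cofactor supply. Idh1, which makes the 2-oxoglutarate that JmjC enzymes consume, went from 9.80 ± 1.83 CPM (SD, n = 8) to 19.9 ± 3.44 CPM (SD, n = 6; log2 fold change 1.02, adjusted p = 2.20e-06). Nmnat2, an enzyme of NAD synthesis, went from 5.89 ± 1.21 to 1.97 ± 0.583 CPM (log2 fold change -1.57, adjusted p = 1.13e-06), and in neither gene did the groups overlap. Both calls were lost with the naive score as covariate, for Idh1 (log2 fold change 0.40, adjusted p = 0.535) and for Nmnat2 (log2 fold change -0.73, adjusted p = 0.473), and kept with the myeloid score. Nmnat2 does not stand for its group. Among the 5 genes of NAD synthesis 2 were higher and 2 lower (40% each, beside 32.6% and 32.7% of all tested genes). Their summed level was 71.0 to 83.5 CPM in CP CML and 91.4 to 120 CPM in BC CML. Riox1, Pagr1a and Cxxc1 also lost their calls with the naive score, at log2 fold changes of -0.47 for Riox1 and -0.32 for Cxxc1, near those without it, and of -0.018 for Pagr1a, and Jmjd1c kept its call with either score.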

How the data were processed

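Sorted spleen T cells of 8 CP CML and 6 BC CML mice were measured by RNA-seq (Kapa mRNA HyperPrep, paired reads), 1 library per mouse. The authors trimmed adapters (Trimmomatic) and polyA tails (FASTP), aligned to mm10 with STAR 2.6.0 and counted reads per gene with HTSeq 0.11.1 (versions from the submitters' processing notes). They deposited raw counts of 24091 genes, not normalized, with gene positions and lengths. The annotation and strand setting of the counting are not given in the sources used here.

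Raw counts were filtered with filterByExpr (minimum count 10), scaled by TMM and tested with edgeR 4.0.16 (glmQLFit, robust, and glmQLFTest; R 4.3.3, limma 3.58.1) over 12248 genes, with no covariate and Benjamini-Hochberg adjustment over all of them at 0.05. The study's likelihood ratio test and DESeq2 1.42.0 were alternatives. SEs came from the fold change and F. CPM are TMM-scaled, with a prior count of 2 on the log2 scale. Level per length divides CPM by the listed gene length. Ratios within a mouse used raw counts.  On simulated data for this comparison (12187 genes) the test recovered 191 of 200 genes changed by 1 on the log2 scale, with 7 other calls. Smaller changes, such as most of those of the enzymes, and data in which most genes differ were not simulated. Seed matches were read from the longest 3′ UTR of each gene's protein-coding transcripts (GENCODE vM21).

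The members, classes, related lists, marker lists and paralog pairs were chosen with earlier results of these data known. Mir142 and every member may be named. Full values are given for members past the threshold with an absolute log2 fold change of at least 0.5 and no overlap and for the highest of each class per length. Of each related list the 2 largest changes at a mean of at least 1 CPM are named, with Ezh2, Crebbp and Ep300, and some genes of the lists are not reported here by name or as a group. Members without overlap, and mice that stood apart, were also described after their values were seen. The labels name separate mice, and P-values measure the spread between them. Replicates differed beyond sampling noise (chi-square per degree of freedom 3.01 to 22.7), so each counted once. No column of counts was left unmatched.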

Additional observations from a re-analysis of the deposited data

Results flagged for a closer look

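Dixon's test at 95% set 6 of 132 groups of values apart, where chance alone sets about 1 in 20 apart. For Hdac11, BC CML replicate 3 was the lowest of its group at 4.09 CPM, with the next at 6.23 CPM. For Hdac7, BC CML replicate 2 was the highest at 265.9 CPM (next 227 CPM), and the same mouse was the highest for Kdm4a at 136 CPM (next 124 CPM). For Kdm5b, CP CML replicate 2 was the highest at 116 CPM (next 99.8 CPM). For Prmt7, BC CML replicate 3 was the highest at 29.4 CPM (next 25.3 CPM). BC CML replicate 2 also had the fewest reads of its group, 16145537 (next 18319039).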

How the results depend on the processing

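Of the 33 called enzymes, 28 kept their call in all 14 leave-one-out fits and 23 in those plus the 8 other fits without a marker covariate (likelihood ratio test, DESeq2, RLE factors, library size alone, both filters on low counts, the replicate block, and CP CML mice 2 and 7 left out). No called enzyme changed direction in these 22 fits. Leaving out 1 mouse gave 9 to 15 enzymes higher and 19 to 22 lower, 3861 to 3977 of all genes higher and 3847 to 3989 lower, 21 to 25 related genes higher and 60 to 64 lower, and 9 to 10 paralog pairs that differed against 9 with all mice. Ratios of other gene pairs were not computed, so the count of pairs has no background share. Of all tested genes, 65.2% were called on their own. The pair fits and the fit without mice 2 and 7 were chosen after seeing the data. Hdac10, Kat7, Kat8, Kdm6a and Prmt2 lost their call without at least 1 mouse. A call was gained without 1 mouse by Kmt2a (CP CML replicate 5 or 6, BC CML replicate 5 or 6), Kmt2d (CP CML 7), Kat6a (CP CML 2 or 7, BC CML 1 or 2), Hdac8 (CP CML 3 or 5, BC CML 3), Kdm5c (CP CML 5 or 6, BC CML 6), Kdm2b (CP CML 5, BC CML 3), Kdm4c (CP CML 8) and Kdm4d (CP CML 2). With the replicate number 1 to 6 as a block (12 mice), 8 enzymes were higher and 15 lower, and Hdac10, Kat7, Kat8, Kdm1b, Kdm5b, Kdm6a, Prmt1, Prmt2, Prmt9 and Sirt1 were lost. The numbers did not pair the mice, since the deviations of same-numbered mice correlated at -0.024 on average (-0.27 to 0.36, 6 pairs) and 3 of 12 mice correlated best with their own number.

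With the myeloid score as covariate 6 enzymes were higher and 10 lower, 2631 and 2652 of all genes, and 14 related genes higher and 48 lower. With the naive score 3 and 4 enzymes, 995 and 584 of all genes, and 4 and 9 related genes were called. Under the naive score the log2 fold change turned to -0.097 for Hdac1, -0.28 for Hdac10, 0.076 for Hdac4, -0.050 for Kat8, 0.14 for Kdm3a, 0.21 for Kdm5a, 0.011 for Kdm5b, 0.13 for Kdm6a, -0.37 for Prmt2, 0.17 for Prmt3, 0.29 for Prmt7 and 0.028 for Sirt1, none of them called. Both scores follow genotype (correlations of 0.79 and -0.95), so the cause was not tested. CPM without length kept the top enzyme of 2 of the 6 classes, 8mer sites alone left 4 of the 21 enzymes with a match, and all annotated 3′ UTR sequence gave 22. The covariate of Y-linked genes was not run because their reads were 0 in every library.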
